A study of Danio rerio with 6 samples.

Results

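Retinoic acid signalling was described here through 5 zebrafish genes, which were chosen because this pathway has been tied to kidney repair and to the action of PTBA compounds. They are aldh1a2 (ENSDARG00000053493), cyp26a1 (ENSDARG00000033999), raraa (ENSDARG00000056783), rarab (ENSDARG00000034893) and rarga (ENSDARG00000034117). All 5 identifiers were found among the 32520 genes of the count table, and 4 passed edgeR's filter on low counts.

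The libraries came from Tg(PT:EGFP) larvae, in which a transgene marks the proximal tubule green so that the pronephros can be dissected by hand. All larvae of both groups carried gentamicin-induced acute kidney injury (gent-AKI), from an injection at 3 dpf. In gent-AKI+UPHD25, larvae were exposed at 2 dpi, which is 5 dpf, to 1 μM UPHD25 in 1% DMSO for 24 h at 28 °C. UPHD25 is a prodrug of PTBA, a histone deacetylase (HDAC) inhibitor. In gent-AKI+DMSO, larvae were exposed to 1% DMSO alone over the same interval. Green pronephros from 100 larvae was pooled for each library, with 3 libraries in either group, named as biological replicates 1 to 3. No uninjured group was analysed here, so the values describe UPHD25 against vehicle after injury and not the response to injury.

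Retinoic acid is made from vitamin A by retinol dehydrogenases such as RDH10, which give retinal, and by the retinaldehyde dehydrogenases, which turn retinal into the acid. It is removed by the CYP26 hydroxylases, of which cyp26a1 is itself switched on by retinoic acid in many vertebrate tissues. The acid binds the retinoic acid receptors (RARs), which sit on DNA with retinoid X receptors (RXRs) and exchange corepressor complexes holding HDACs for coactivators when ligand arrives. In the zebrafish embryo this signal patterns the pronephros along its length.

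Counts on genes summed to between 10781071 and 23328700 in gent-AKI+UPHD25 and between 11851159 and 30750026 in gent-AKI+DMSO. A count of 3, used as the floor, stood for 0.133 to 0.289 CPM in gent-AKI+UPHD25 and 0.1003 to 0.281 CPM in gent-AKI+DMSO. All 11 proximal tubule markers found had counts, and their summed level was 358, 194 and 303 CPM in gent-AKI+UPHD25, against 384, 175 and 259 CPM in gent-AKI+DMSO. Markers of other tissues were counted as well. Summed leukocyte markers were 135, 105 and 59.08 CPM in gent-AKI+UPHD25, against 218, 192 and 253 CPM in gent-AKI+DMSO. Of the leukocyte list 6 genes were matched, of which lyz was at 0 in all libraries and 4 had groups that did not overlap, each lower in gent-AKI+UPHD25. The sums of skeletal muscle and exocrine pancreas markers also did not overlap and were lower in gent-AKI+UPHD25. Neuron and glia markers summed to 278, 574 and 717 CPM in gent-AKI+UPHD25, against 271, 263 and 287 CPM in gent-AKI+DMSO, with 2 of 7 genes apart and higher and the sums overlapping. Over all genes tested, the groups were apart and lower in gent-AKI+UPHD25 for 7.46%, and apart and higher for 10.4%. In replicate 3 of gent-AKI+UPHD25 the intestine sum was 599 CPM and the epidermis sum 2475 CPM, where no other library passed 158 and 1250 CPM. Replicate 3 of gent-AKI+UPHD25 stood apart, with a mean correlation to the other libraries of 0.919, where the others had 0.939 to 0.953. In tissue libraries of this kind, fewer cells of a type and less RNA per cell cannot be told apart.

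The gene that makes retinoic acid, aldh1a2, was listed at 0. It encodes the retinaldehyde dehydrogenase that is the main source of retinoic acid in the early vertebrate embryo. Its count was 0 in all 3 gent-AKI+UPHD25 libraries and 0 in all 3 gent-AKI+DMSO libraries, which allows up to 0.289 and 0.281 CPM in the shallowest library of each group, for counting error only. Since 6439 genes (19.8%) of the table were at 0 everywhere, and since 1 of 81 ribosomal protein and housekeeping genes (rpl32) was among them, a listed 0 need not mean absent RNA. Whether reads of aldh1a2 were assigned elsewhere was not tested, and no fold change was computed.

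Another retinaldehyde dehydrogenase, aldh1a3 (ENSDARG00000076933), was counted in every library. Its level was 4.52, 3.46 and 6.24 CPM in gent-AKI+UPHD25, against 3.54, 1.87 and 2.497 CPM in gent-AKI+DMSO. Each gent-AKI+UPHD25 library was above the gent-AKI+DMSO library of the same number, while the groups overlapped. On the log2 scale the fold change was 0.83 (SE 0.37), with an adjusted p of 0.413 in edgeR's quasi-likelihood test after Benjamini-Hochberg adjustment. RDH10 (ENSDARG00000012369), the retinol dehydrogenase one step upstream, had 110, 117 and 55.5 CPM in gent-AKI+UPHD25, against 67.5, 65.6 and 90.3 CPM in gent-AKI+DMSO. With TMM scaling its lowest value was in replicate 3 of gent-AKI+UPHD25, the library with the largest TMM factor, and its groups overlapped. In edgeR's quasi-likelihood test its log2 fold change was 0.34 (SE 0.30, adjusted p = 0.740). The other RDH10 copy (ENSDARG00000058730) had -0.01 (SE 0.44, adjusted p = 0.996 in the same test), also with overlapping groups. A further aldehyde dehydrogenase of the list, aldh8a1 (ENSDARG00000036776), had 14.4, 6.25 and 5.24 CPM in gent-AKI+UPHD25, against 13.3, 13.2 and 10.1 CPM in gent-AKI+DMSO. For aldh8a1 the groups overlapped, and the log2 fold change was -0.485 (SE 0.39, adjusted p = 0.716 in the same test).

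Among the 4 members tested, 0 passed an adjusted p of 0.05, as did 0% of all 17497 genes tested. At an unadjusted p under 0.05, 0 members were higher in gent-AKI+UPHD25, against 9.09% of all genes, and 1 member, rarga, was lower, against 3.41%. The groups did not overlap for 1 member, again rarga, which was lower. Over all genes, 7.46% were lower without overlap. A further 10.4% of genes were higher without overlap, and 0 members were among them. These counts rest on 1 gene and are no result about the members as a set.

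**Figure D1:**
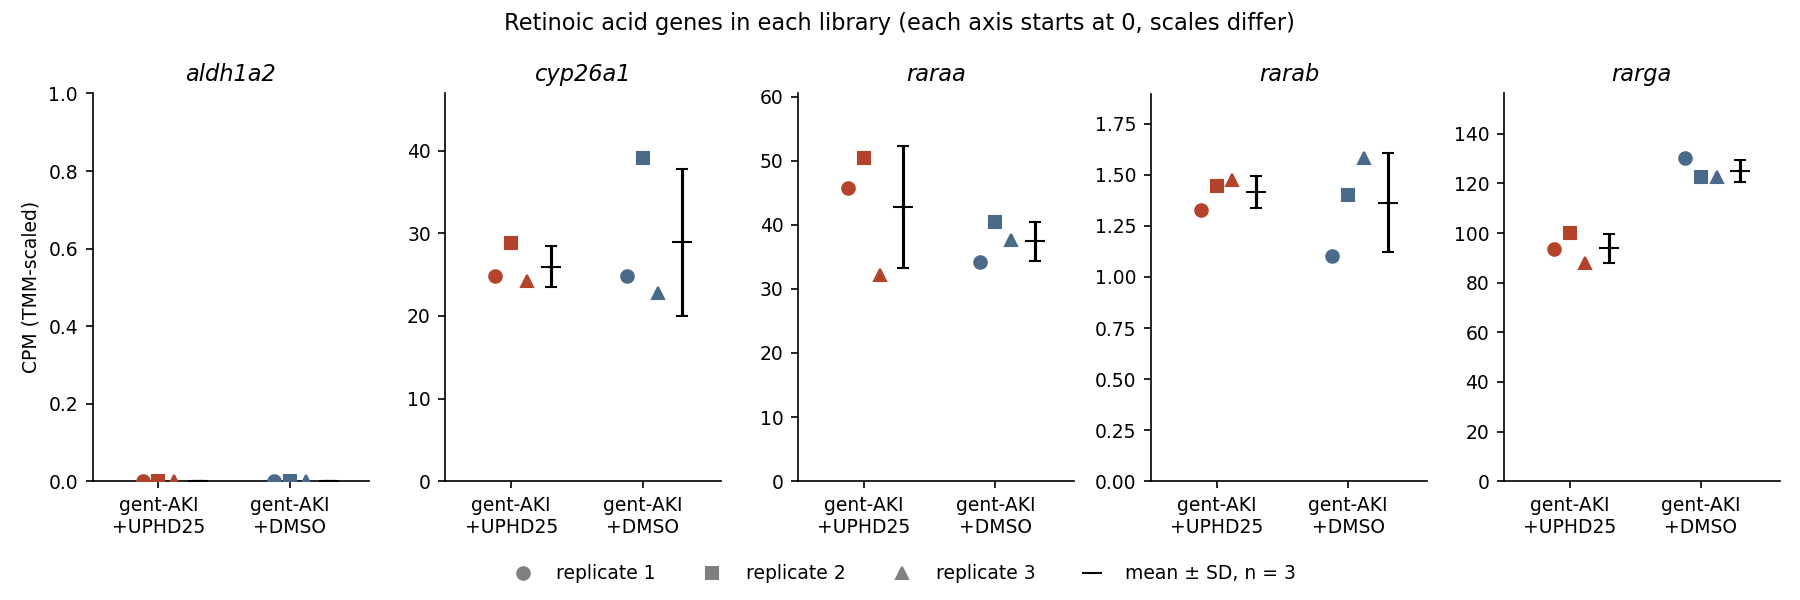
CPM with TMM scaling (y axis, from 0, with a scale of its own in each panel) of the 5 genes in the 3 gent-AKI+UPHD25 and 3 gent-AKI+DMSO libraries. Symbols mark the replicate number, and the bar is the mean ± SD of 3 libraries. The rarga values of gent-AKI+UPHD25 lie between 88.0 and 99.9 CPM, below all gent-AKI+DMSO values, while cyp26a1, raraa and rarab overlap and aldh1a2 is at 0.

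The breakdown enzyme cyp26a1 showed no difference that passed the test. Its counts were 561, 300 and 361 in gent-AKI+UPHD25, against 742, 418 and 274 in gent-AKI+DMSO. These stood for 24.8, 28.9 and 24.2 CPM in gent-AKI+UPHD25, against 24.8, 39.1 and 22.8 CPM in gent-AKI+DMSO. Only replicate 2 of gent-AKI+DMSO was well away from the other libraries, and the groups overlapped. The mean was 26.0 ± 2.51 CPM in gent-AKI+UPHD25 and 28.9 ± 8.89 CPM in gent-AKI+DMSO (SD, n = 3 each), with an exact two-sided permutation p of 0.9. The log2 fold change was -0.15 (SE 0.24, 95% interval -0.71 to 0.40) and the adjusted p was 0.877 in edgeR's quasi-likelihood test. The interval spans a fold of 0.612 to 1.32, so these libraries allow a lower, an equal or a higher level within that range. Without replicate 2 of gent-AKI+DMSO the log2 fold change was 0.12, with an adjusted p of 0.982.

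The other CYP26 enzymes clear retinoic acid as well, and both had log2 fold changes below 0. For cyp26b1 (ENSDARG00000077121) the level was 141, 63.0 and 97.7 CPM in gent-AKI+UPHD25, against 179, 159 and 107 CPM in gent-AKI+DMSO. For cyp26c1 (ENSDARG00000056029) it was 22.8, 16.5 and 19.3 CPM in gent-AKI+UPHD25, against 43.8, 34.4 and 24.1 CPM in gent-AKI+DMSO. The cyp26b1 groups overlapped, while all gent-AKI+UPHD25 libraries were below all gent-AKI+DMSO libraries for cyp26c1. In log2 fold change, this came to -0.56 (SE 0.32, adjusted p = 0.556) for cyp26b1 and -0.81 (SE 0.25, unadjusted p = 0.0134, adjusted p = 0.251) for cyp26c1 in edgeR's quasi-likelihood test. Of the 3 breakdown genes, 1 was thus apart and lower, beside 7.46% of all genes tested. At an unadjusted p under 0.05, 1 was lower, again cyp26c1, beside 3.41%. These counts rest on 1 gene and are no result about the role.

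Within the reads of the 3 CYP26 genes, cyp26a1 took 13.2%, 26.6% and 17.2% in gent-AKI+UPHD25, against 10.0%, 16.8% and 14.8% in gent-AKI+DMSO. Such a share does not depend on how libraries are scaled to each other, and it is a share of counts and not of molecules. It was higher in gent-AKI+UPHD25 in 3 of 3 same-numbered pairs, but the groups overlapped. The means differed by 5.13 percentage points (SE 4.47), with an exact permutation p of 0.4. A higher share is not a higher level of cyp26a1. The widest pair was replicate 2, at 9.84 percentage points. There cyp26a1 had 28.9 CPM in gent-AKI+UPHD25 against 39.1 CPM in gent-AKI+DMSO, and cyp26b1 had 63.0 against 159 CPM.

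The alpha receptor copy raraa had 1031, 524 and 478 counts in gent-AKI+UPHD25, against 1025, 432 and 451 counts in gent-AKI+DMSO. The receptor is one of those through which retinoic acid reaches its target genes. Its level was 45.7, 50.4 and 32.1 CPM in gent-AKI+UPHD25, against 34.3, 40.4 and 37.5 CPM in gent-AKI+DMSO. The highest and the lowest value were both in gent-AKI+UPHD25, the lowest in replicate 3. The mean was 42.7 ± 9.50 CPM in gent-AKI+UPHD25 and 37.4 ± 3.08 CPM in gent-AKI+DMSO (SD, n = 3 each), with an exact permutation p of 0.5. The log2 fold change was 0.19 (SE 0.21, 95% interval -0.29 to 0.68, adjusted p = 0.804 in edgeR's quasi-likelihood test). Without replicate 3 of gent-AKI+UPHD25 it was 0.36 (SE 0.18, adjusted p = 0.524), without replicate 2 of that group 0.05, and without replicate 1 of gent-AKI+DMSO 0.11. Scaled by library totals in place of TMM, the raraa groups no longer overlapped and gent-AKI+UPHD25 was higher, with a log2 fold change of 0.30 and an adjusted p of 0.665.

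The other alpha copy, rarab, was counted near the limit of these libraries, with 30, 15 and 22 counts in gent-AKI+UPHD25 and 33, 15 and 19 counts in gent-AKI+DMSO. Its level was 1.33, 1.44 and 1.48 CPM in gent-AKI+UPHD25, against 1.103, 1.40 and 1.58 CPM in gent-AKI+DMSO. The gent-AKI+UPHD25 values lay inside the range of the gent-AKI+DMSO values. Its log2 fold change was 0.07 (SE 0.35, 95% interval -0.74 to 0.87, adjusted p = 0.968 in edgeR's quasi-likelihood test). That interval is a fold of 0.600 to 1.83, so a lower, an equal or a higher level within it is allowed.

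The gamma receptor copy rarga was the only member whose groups were apart with TMM scaling. Its counts were 2114, 1039 and 1311 in gent-AKI+UPHD25, against 3896, 1311 and 1470 in gent-AKI+DMSO. Its level was 93.6, 99.9 and 88.0 CPM in gent-AKI+UPHD25, against 130.2, 123 and 122 CPM in gent-AKI+DMSO. Every gent-AKI+UPHD25 library was below every gent-AKI+DMSO library, and the gap between the groups was wider than the range within either. The mean was 93.9 ± 5.96 CPM in gent-AKI+UPHD25 and 125 ± 4.44 CPM in gent-AKI+DMSO (SD, n = 3 each), with an exact permutation p of 0.1, the smallest that 3 libraries against 3 can give.

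In the fit across all genes, the log2 fold change of rarga was -0.41 (SE 0.16, 95% interval -0.78 to -0.05), a fold of 0.750. The unadjusted p was 0.0291, which ranked 1582 among the 17497 genes, and the adjusted p of edgeR's quasi-likelihood test after Benjamini-Hochberg adjustment was 0.322. The difference therefore did not pass the threshold over all genes. Within same-numbered pairs the log2 difference was -0.48, -0.30 and -0.47, so rarga was lower in 3 of 3 pairs. The groups stayed apart, with gent-AKI+UPHD25 lower, under each of the 4 scalings tried, and the log2 fold change was smallest in size with library totals, at -0.29 (unadjusted p = 0.134, adjusted p = 0.601 in edgeR's quasi-likelihood test).

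Some measured facts stand beside the rarga values. The leukocyte, skeletal muscle and exocrine pancreas sums were lower in gent-AKI+UPHD25, as rarga was, and their part in the rarga difference was not tested. Exocrine pancreas sums ranged over 2135 to 6635 CPM in gent-AKI+UPHD25 and over 7410 to 12220 CPM in gent-AKI+DMSO, with 3 of 7 markers apart and none at 0 in all libraries. Skeletal muscle sums ranged over 5747 to 11200 CPM in gent-AKI+UPHD25 and over 12700 to 14470 CPM in gent-AKI+DMSO, with 4 of 8 markers apart and none at 0 in all libraries. The markers apart were lower in gent-AKI+UPHD25, where 7.46% of all genes tested were apart and lower. Leaving out replicate 3 of gent-AKI+UPHD25, the library that stood apart, gave a log2 fold change of -0.37 (adjusted p = 0.470 in edgeR's quasi-likelihood test). In the RefSeq annotation of assembly GRCz12tu, rarga overlaps nr1d4a (ENSDARG00000031161), which encodes an orphan nuclear receptor. The level of nr1d4a was 9.39, 5.58 and 18.9 CPM in gent-AKI+UPHD25, against 5.31, 8.61 and 2.75 CPM in gent-AKI+DMSO. Those values overlapped, and how shared reads were split is not given in the sources used here.

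The receptors were also compared with each other inside each library. Of the reads on raraa, rarab and rarga together, rarga took 66.6%, 65.8% and 72.4% in gent-AKI+UPHD25, against 78.6%, 74.6% and 75.8% in gent-AKI+DMSO. The share of raraa was 32.5%, 33.2% and 26.4% in gent-AKI+UPHD25, against 20.7%, 24.6% and 23.3% in gent-AKI+DMSO. The groups were apart for both genes, with a lower rarga share and a higher raraa share in gent-AKI+UPHD25. The raraa and rarga shares are nearly complementary, so they are not separate observations.

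The rarga share averaged 68.3% ± 3.59 in gent-AKI+UPHD25 and 76.3% ± 2.09 in gent-AKI+DMSO (SD, n = 3 each), a difference of -8.06 percentage points (SE 2.40) with an exact permutation p of 0.1. The raraa share averaged 30.7% ± 3.74 in gent-AKI+UPHD25 and 22.8% ± 1.97 in gent-AKI+DMSO (SD, n = 3 each), a difference of 7.85 percentage points (SE 2.44) with an exact permutation p of 0.1. Both differences had the same direction in 3 of 3 pairs, and the narrowest pair was replicate 3, at 3.15 percentage points for raraa. There the 95% Wilson interval of raraa was 24.4% to 28.5% in gent-AKI+UPHD25 and 21.4% to 25.2% in gent-AKI+DMSO, and these intervals overlap. The intervals cover counting error only, since reads without molecular identifiers are not independent molecules. The rarab share was 0.945%, 0.951% and 1.22% in gent-AKI+UPHD25, against 0.666%, 0.853% and 0.979% in gent-AKI+DMSO, with overlapping groups and an exact permutation p of 0.3.

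A further gamma copy (RARG, ENSDARG00000054003) had 80, 55 and 65 counts in gent-AKI+UPHD25, against 264, 73 and 39 counts in gent-AKI+DMSO. With its reads in the total, the difference was -7.36 percentage points for rarga and 7.74 for raraa, and the groups stayed apart for both. The summed level of raraa, rarab and rarga was 141, 152 and 122 CPM in gent-AKI+UPHD25, against 166, 165 and 162 CPM in gent-AKI+DMSO. These sums did not overlap and were lower in gent-AKI+UPHD25, with an exact permutation p of 0.1. Since rarga took most of these reads in every library, the sum is not an observation separate from rarga. Receptor copies are near relatives, and reads common to several of them would move these values by rules that the sources used here do not give.

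**Figure D2:**
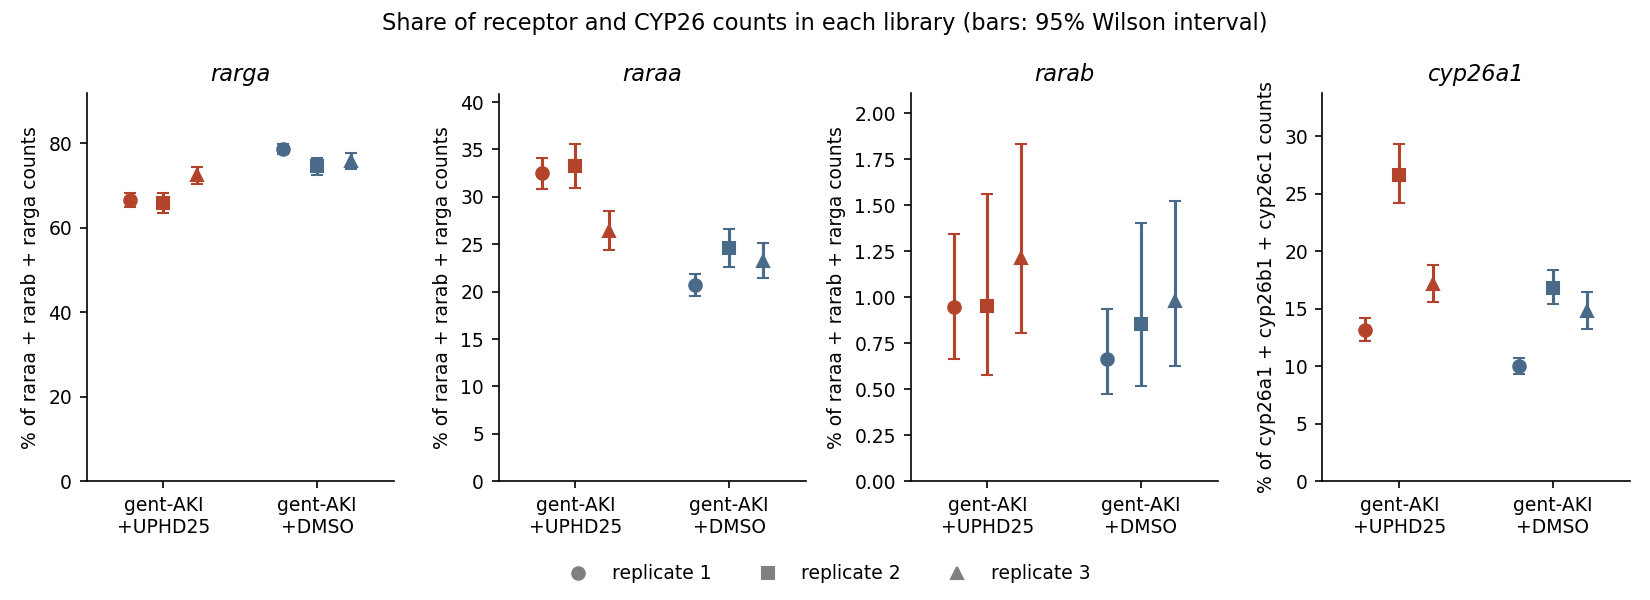
Percent of counts (y axis, from 0) taken by rarga, raraa and rarab among the reads of these 3 receptors, and by cyp26a1 among the reads of the 3 CYP26 genes, in each gent-AKI+UPHD25 and gent-AKI+DMSO library. Bars are 95% Wilson intervals and symbols mark the replicate number. The rarga share lies between 65.8% and 72.4% in gent-AKI+UPHD25 and between 74.6% and 78.6% in gent-AKI+DMSO, and the cyp26a1 share overlaps.

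The RXRs are the partners with which RARs bind DNA. Of the 9 RAR and RXR genes tested, 0 passed the adjusted threshold, 2 had a log2 fold change above 0 (raraa and rarab) and 7 below 0, and the groups were apart and lower in gent-AKI+UPHD25 for 3, where 7.46% of all genes tested were. Their median log2 fold change was -0.18, where that of all genes tested was 0.03. With library totals, which raise all genes together, the counts were 3 above 0 and 6 below 0. The median of all genes moves with the scaling. The count below that median, 7 of the 9, was therefore the same under each of the 4 scalings and adds no support.

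The RXRA copy ENSDARG00000035127 had 6.46, 6.54 and 7.39 CPM in gent-AKI+UPHD25, against 11.7, 17.6 and 9.99 CPM in gent-AKI+DMSO. The RXRA copy ENSDARG00000057737 had 12.8, 9.81 and 12.6 CPM in gent-AKI+UPHD25, against 16.2, 18.5 and 14.1 CPM in gent-AKI+DMSO. With rarga these were the receptors whose gent-AKI+UPHD25 libraries all lay below the gent-AKI+DMSO libraries, although ENSDARG00000057737 overlapped with library totals. Fitted log2 fold changes were -0.94 (SE 0.27, adjusted p = 0.230) for ENSDARG00000035127 and -0.47 (SE 0.22, adjusted p = 0.439) for ENSDARG00000057737 in edgeR's quasi-likelihood test. RXRB (ENSDARG00000078954) had 53.9, 83.8 and 63.9 CPM in gent-AKI+UPHD25, against 71.0, 86.6 and 64.9 CPM in gent-AKI+DMSO, and its groups overlapped.

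**Figure D3:**
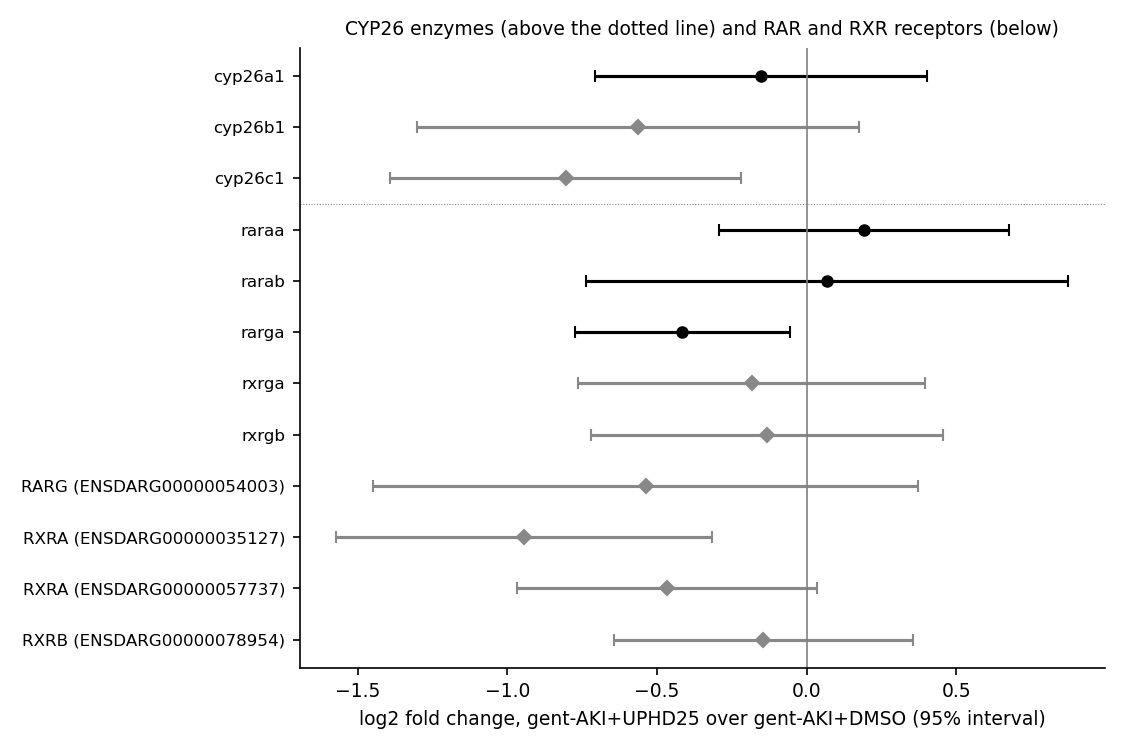
Log2 fold change of gent-AKI+UPHD25 over gent-AKI+DMSO (x axis) with its 95% interval for the 3 CYP26 enzymes and the 9 RAR and RXR genes tested (rows). Black circles are cyp26a1, raraa, rarab and rarga, and grey diamonds are other genes. The intervals of rarga, cyp26c1 and RXRA ENSDARG00000035127 lie below 0 without adjustment for the number of genes, and those of cyp26a1, raraa and rarab hold 0.

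Around the members, a list of 95 retinoid pathway symbols was matched to 83 genes, of which 71 were tested and 5 were at 0 in all libraries. No gene of the list passed the adjusted threshold (0 in edgeR's quasi-likelihood test), where 7 of the 71 had an unadjusted p under 0.05. Of these, 3 were higher in gent-AKI+UPHD25, beside 9.09% of all genes tested, and 4 were lower, beside 3.41%. DESeq2's Wald test called 1 of 71 list genes, a CRABP1 copy, and 3.46% of all genes with an adjusted p. The log2 fold change was above 0 for 33 and below 0 for 38 of the 71 genes, with a median of -0.01 beside 0.03 for all genes tested. The groups were apart and higher in gent-AKI+UPHD25 for 7 of the 71, beside 10.4% of all genes tested, and apart and lower for 6, beside 7.46% of all genes, so both counts are near those shares.

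Among the 14 tested genes of retinoid storage, carotenoid cleavage and transport, 8 had a log2 fold change above 0 and 6 below 0. The groups were apart and higher in gent-AKI+UPHD25 for 2, beside 10.4% of all genes tested, and apart and lower for 0, beside 7.46%. The CRABP1 copy ENSDARG00000045926, which encodes a cytoplasmic binding protein for retinoic acid, had 110, 29 and 137 counts in gent-AKI+UPHD25, against 35, 13 and 14 counts in gent-AKI+DMSO. All gent-AKI+UPHD25 libraries were above all gent-AKI+DMSO libraries once scaled, at 4.87, 2.79 and 9.20 CPM against 1.17, 1.22 and 1.17 CPM. The log2 fold change was 2.25 (SE 0.47), with an adjusted p of 0.207 in edgeR's quasi-likelihood test and 0.0024 in DESeq2's Wald test. Of the 7 neuron and glia markers, 2 had groups apart and higher, beside 10.4% of all genes tested. The others overlapped, and none was at 0 in all libraries. SNAP25 (ENSDARG00000058117), which had the smallest p of that list, had 39.0, 34.5 and 76.8 CPM in gent-AKI+UPHD25, against 17.2, 18.0 and 19.8 CPM in gent-AKI+DMSO. For mbpa, which overlapped, it was 8.50, 9.81 and 40.0 CPM in gent-AKI+UPHD25, against 13.7, 11.1 and 13.5 CPM in gent-AKI+DMSO. Among the overlapping markers, elavl3, elavl4 and the other SNAP25 copy (ENSDARG00000020609) were higher in gent-AKI+UPHD25 in 3 of 3 pairs. In the same count gfap had 2 pairs and mbpa had 1. Log2 fold changes of the 7 markers ran from 0.50 (gfap) to 1.45 (SNAP25 ENSDARG00000058117). The part of these markers in the CRABP1 values was not tested. The other CRABP1 copy (ENSDARG00000035904) had a log2 fold change of 0.17 (adjusted p = 0.869 in edgeR's quasi-likelihood test). The CRABP2 copy ENSDARG00000030449 had 180.4, 212.1 and 108.8 CPM in gent-AKI+UPHD25, against 182.1, 220.5 and 218.3 CPM in gent-AKI+DMSO. Its log2 fold change was -0.31 (SE 0.26, adjusted p = 0.730 in the same test). The other CRABP2 copy (ENSDARG00000073978) had 0.42 (SE 0.30, adjusted p = 0.662 in the same test). The groups overlapped for both CRABP2 copies. BCO2 (ENSDARG00000055722), a carotenoid-cleaving dioxygenase, had 6.20, 5.39 and 13.7 CPM in gent-AKI+UPHD25, against 3.44, 2.34 and 4.50 CPM in gent-AKI+DMSO, and its groups were apart. In edgeR's quasi-likelihood test its log2 fold change was 1.295 (SE 0.43, adjusted p = 0.272). The other BCO2 copy (ENSDARG00000041715) had -0.01 (SE 0.47, adjusted p = 0.996 in the same test), with overlapping groups. For rbp4, the carrier of retinol in plasma, the level was 1557, 519 and 688 CPM in gent-AKI+UPHD25, against 1579, 625 and 641 CPM in gent-AKI+DMSO, with the replicate 1 libraries highest in both groups.

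Of the 15 tested retinol and retinal dehydrogenases and reductases, 8 were above 0 and 7 below 0 in log2 fold change, between -0.49 and 0.83. Only a copy of RDH14 (ENSDARG00000039299), a retinal reductase, had groups apart in this role, at 5.36, 4.33 and 8.39 CPM in gent-AKI+UPHD25 against 4.28, 3.93 and 2.91 CPM in gent-AKI+DMSO. Its log2 fold change was 0.70 (SE 0.34, adjusted p = 0.464 in edgeR's quasi-likelihood test). The other RDH14 copy (ENSDARG00000002467) had 0.34 (SE 0.23, adjusted p = 0.642 in the same test), with overlapping groups. In this role 1 of 15 genes was thus apart and higher, beside 10.4% of all genes tested, and 0 were apart and lower, beside 7.46%.

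The coregulators link the receptors to chromatin. Of 18 tested, 10 were above 0 and 8 below 0 in log2 fold change. The groups were apart and higher in gent-AKI+UPHD25 for 1 (hdac1), beside 10.4% of all genes tested, and apart and lower for 2, beside 7.46%. The corepressor subunit tbl1xr1a (ENSDARG00000058696) had 83.8, 89.0 and 76.2 CPM in gent-AKI+UPHD25, against 117, 133 and 112 CPM in gent-AKI+DMSO. Its groups were apart, and its log2 fold change was -0.54 (SE 0.17, adjusted p = 0.243 in edgeR's quasi-likelihood test). The other copy tbl1xr1b (ENSDARG00000008966) had 0.06 (SE 0.18, adjusted p = 0.936 in the same test). For tbl1x (ENSDARG00000060438) it was 0.37 (SE 0.40, adjusted p = 0.802 in the same test). The groups overlapped for tbl1xr1b and tbl1x. For the deacetylases, hdac3 (ENSDARG00000037514) had a log2 fold change of -0.06 (SE 0.35, adjusted p = 0.973) and hdac1 (ENSDARG00000015427) one of 0.14 (SE 0.17, adjusted p = 0.825) in edgeR's quasi-likelihood test. The level of hdac1 was 215.3, 220.6 and 207.1 CPM in gent-AKI+UPHD25, against 207, 173.2 and 202.2 CPM in gent-AKI+DMSO. Its groups overlapped with DESeq2 size factors.

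Genes known to respond to retinoic acid in vertebrates had log2 fold changes on both sides of 0. Of 18 tested, 6 were above 0 and 12 below 0. With library totals 11 were above 0 and 7 below 0, so the signs depend on the scaling. Under each of the 4 scalings 12 were below the median of all genes. That median moves with the genes, so the constant 12 adds no support. The orphan receptor gene nr2f2 (ENSDARG00000040926) had 57.6, 71.7 and 92.3 CPM in gent-AKI+UPHD25, against 51.7, 41.9 and 50.9 CPM in gent-AKI+DMSO. The homeobox gene meis2b (ENSDARG00000077840) had 87.7, 100.3 and 98.9 CPM in gent-AKI+UPHD25, against 76.5, 47.3 and 83.1 CPM in gent-AKI+DMSO. Both had groups apart and higher in gent-AKI+UPHD25, as did a MEIS2 copy (ENSDARG00000098240). These are 3 of the 18, beside 10.4% of all genes tested. The groups were apart and lower for 0 of the 18, beside 7.46% of all genes tested. Summed neuron and glia markers were also higher in gent-AKI+UPHD25 in 3 of 3 pairs, with overlapping groups, and their part in these values was not tested. The log2 fold changes were 0.62 (SE 0.22, adjusted p = 0.288) for nr2f2 and 0.47 (SE 0.23, adjusted p = 0.472) for meis2b in edgeR's quasi-likelihood test. The homeobox gene hoxb1a (ENSDARG00000008174), a direct target of RARs in the hindbrain, had 45, 38 and 13 counts in gent-AKI+UPHD25, against 86, 57 and 55 counts in gent-AKI+DMSO. Its log2 fold change was -0.98 (SE 0.52, adjusted p = 0.514 in edgeR's quasi-likelihood test), and the groups overlapped in CPM.

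**Figure D4:**
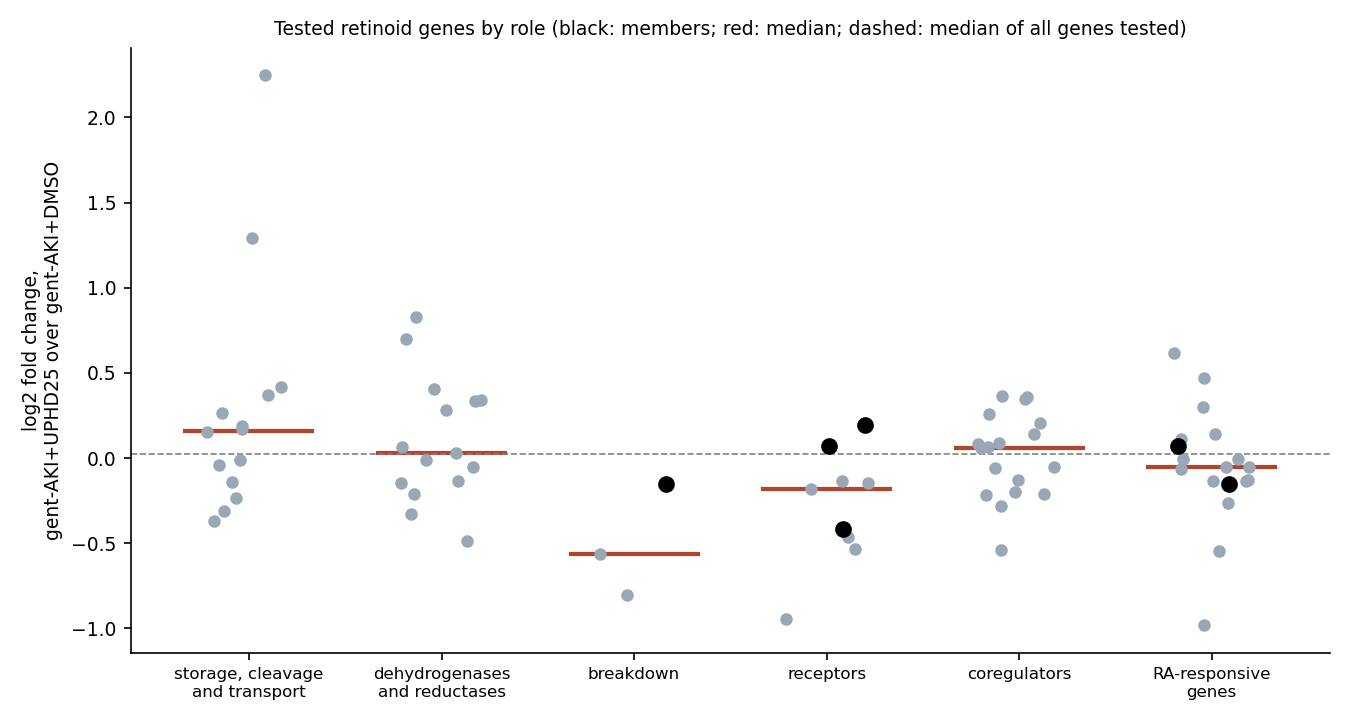
Log2 fold change of gent-AKI+UPHD25 over gent-AKI+DMSO (y axis) of the tested retinoid genes by role (x axis), where a gene with 2 roles is drawn in both. Black points are cyp26a1, raraa, rarab and rarga, red lines are medians by role, and the dashed line is the median of all genes tested, 0.03. The CRABP1 copy at 2.25 is the highest point. The lowest of the medians, -0.56 in the breakdown role, is over only 3 genes and is the value of cyp26b1, whose groups overlapped.

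As a description over 6 libraries that also differ in group, Pearson's r of log2 CPM between 2 members ran from -0.34 (rarab and rarga) to 0.33 (cyp26a1 and raraa). Over all genes tested, the patterns most like that of rarga were those of MYLK4 (ENSDARG00000055412, r = 0.994), USP13 (ENSDARG00000079198, r = 0.992) and chadlb (ENSDARG00000075903, r = 0.992). For raraa they were PCYT2 (ENSDARG00000043003, r = 0.996), malat1 (ENSDARG00000099970, r = 0.981) and GDNF (ENSDARG00000039959, r = 0.978). For cyp26a1 they were GRAMD1B (ENSDARG00000074258, r = 0.996), RPL21 (ENSDARG00000010516, r = 0.995) and si:dkey-28g23.6 (ENSDARG00000090708, r = 0.990). For rarab they were si:rp71-46j2.8 (ENSDARG00000105320, r = 0.973), zgc:173486 (ENSDARG00000100544, r = 0.972) and znf408 (ENSDARG00000036043, r = 0.961). These are the highest of the values for all genes tested, over 6 points each.

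**Figure D5:**
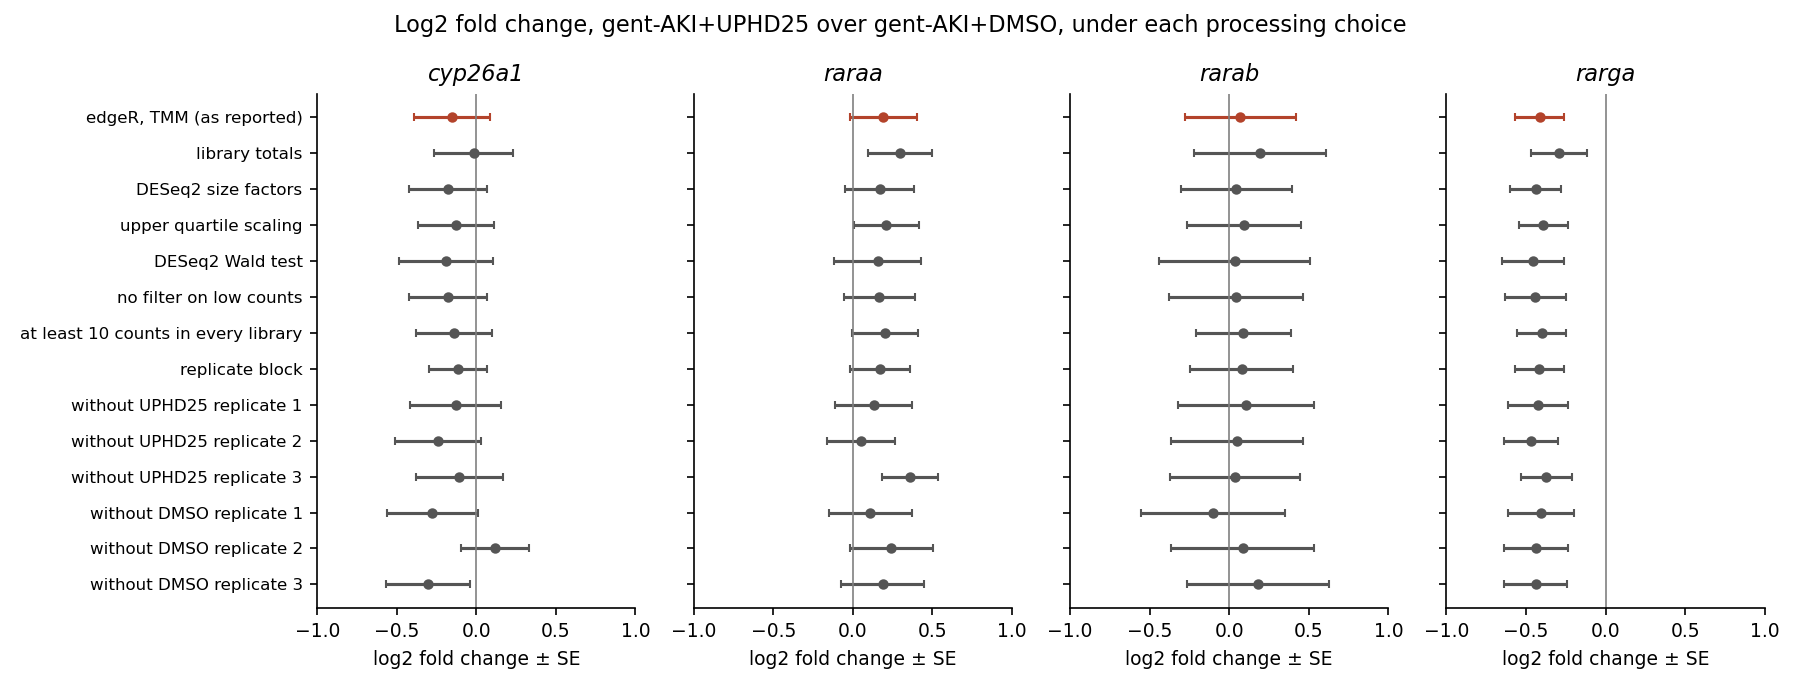
Log2 fold change of gent-AKI+UPHD25 over gent-AKI+DMSO (x axis, ± SE) of cyp26a1, raraa, rarab and rarga under the reported processing (red) and 13 other choices (rows). Values of rarga run from -0.47 to -0.29, those of raraa from 0.05 to 0.36, and cyp26a1 and rarab each cross 0 when 1 gent-AKI+DMSO library is left out.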

How the data were processed

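The authors aligned reads of stranded mRNA libraries with HISAT2 2.1.0 to danRer11 and deposited featureCounts counts per gene, per the labels and the submitters' processing notes, as raw counts with no normalization. The strand option, annotation release and handling of reads shared by several genes are not given in the sources used here. Columns were assigned to samples by their titles.

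The 3 gent-AKI+UPHD25 libraries were compared with the 3 gent-AKI+DMSO libraries in R 4.3.3 with edgeR 4.0.16 (TMM factors, filterByExpr with a minimum count of 10 and a minimum total of 15, glmQLFit and glmQLFTest, two-sided). P-values were adjusted by the Benjamini-Hochberg method over all 17497 genes tested, with a threshold of 0.05. CPM used TMM library sizes, and log2 CPM used a prior count of 2. The TMM factor was 1.212 for gent-AKI+UPHD25 replicate 3 and 0.903 to 1 for the other libraries. A larger factor lowers the CPM of all genes in a library. For single values and shares, an exact permutation test (two-sided) was used, for which the smallest p is 0.1. The fits were tested on simulated counts with known fold changes. These were drawn without replicate pairing and without differences in tissue content, so they do not cover those features of the real libraries.

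Members were matched by Ensembl identifier and list genes by symbol. Gene copies that share an upper-case symbol are given with their identifier. Members, lists and alternatives were chosen with earlier results of these data known. Named genes are the members, in each role the 3 tested genes with the highest mean CPM and the 3 with the smallest p, and the 3 genes most correlated with each member. The text gives a part of the genes this selects. It adds hdac3, aldh8a1, the second CRABP1, BCO2, RDH10 and RARG copies, nr1d4a and rpl32. It also adds the SNAP25 copies, elavl3, elavl4, gfap, mbpa, tbl1xr1b, tbl1x and the untested RBP2 copy, stra6, adh8b and rxrbb. These were chosen after their values were seen.

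Replicate numbers come from the labels. Between same-numbered libraries, deviations from group means had correlations of 0.495, 0.293 and 0.211, so the numbers were taken to pair them. Between libraries of different number the correlations ran from -0.363 to 0.087. Deviations within a group sum to 0, so these correlations are not independent of each other. The replicate 1 libraries had the most counts in both groups, and the part of depth in the correlations was not tested. The main fit and the exact permutation tests did not use this pairing. It was used in the replicate block and in the differences within same-numbered pairs. The pools are called biological replicates, and p-values measure the spread between pools. Alternatives were scaling by library totals, by upper quartiles or by DESeq2 size factors, the Wald test of DESeq2 1.42.0, other count filters, the replicate block and each library left out. The share of cyp26a1 among the CYP26 counts and the RAR total with a further gamma copy were added after the data were seen.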

Additional observations from a re-analysis of the deposited data

How the results depend on the processing

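Leaving out each library in turn gave a log2 fold change of -0.30 to 0.12 for cyp26a1 and of -0.10 to 0.18 for rarab. The value of cyp26a1 turned to 0.12 without gent-AKI+DMSO replicate 2, and that of rarab to -0.10 without gent-AKI+DMSO replicate 1. Over 13 alternatives the value ran from 0.05 to 0.36 for raraa and from -0.47 to -0.29 for rarga, whose adjusted p ran from 0.215 to 0.660, and no member passed the threshold. With the replicate block, rarga had -0.42 (SE 0.15, adjusted p = 0.281 in edgeR's quasi-likelihood test), and the block changed no call of the other members. DESeq2's Wald test called 639 genes, 518 higher and 121 lower in gent-AKI+UPHD25, of which 1 was in the retinoid list, where edgeR called 0 genes and 2186 had an unadjusted p under 0.05. The cause of that difference was not tested. Without 1 library edgeR called 0 to 1 genes, the 1 without gent-AKI+UPHD25 replicate 2. With library totals, all genes together had a median log2 fold change of 0.15, against 0.03 with TMM. Leaving out 1 library, the difference in share was 6.60 to 10.0 percentage points for raraa, -10.1 to -6.84 for rarga and 1.3 to 8.03 for cyp26a1. The fold change of aldh1a2 and the planned ratio of cyp26a1 to aldh1a2 were not run, since aldh1a2 had 0 counts.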

Other observations

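Some retinoid genes fell below the filter on low counts and were not tested. The RBP2 copy ENSDARG00000070038, a cellular retinol-binding protein gene, had 1, 15 and 13 counts in gent-AKI+UPHD25, against 1, 0 and 1 counts in gent-AKI+DMSO. The retinol uptake receptor gene stra6 (ENSDARG00000051874) had 1, 0 and 2 counts in gent-AKI+UPHD25, against 0, 0 and 0 counts in gent-AKI+DMSO. None of these stra6 counts passed the floor of 3. The RXR gene rxrbb (ENSDARG00000002006) had 7, 1 and 12 counts in gent-AKI+UPHD25, against 7, 1 and 2 counts in gent-AKI+DMSO. In the dehydrogenase role, adh8b (ENSDARG00000024278) went the other way, with 3, 0 and 0 counts in gent-AKI+UPHD25, against 2, 4 and 0 in gent-AKI+DMSO. These untested genes were chosen after their values were seen, so their directions are no result.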
